A study of Mus musculus with 12 samples.

Results

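The 9 genes examined here belong to the NRF2 antioxidant response, and they were followed in mouse liver: the transcription factor gene Nfe2l2, its inhibitor Keap1, and 7 genes that NRF2 is known to switch on, Nqo1, Hmox1, Gclc, Gclm, Srxn1, Txnrd1 and Gsr. They were chosen by name for their place in this pathway, with earlier results of these data known. Matched by gene symbol to the identifiers of the count tables, they were 9 of 47729 identifiers in all. Liver RNA was sequenced from 12 male C57BL/6 mice, 4 in each of 3 groups. The healthy group (WT, Vehicle) had neither streptozotocin nor the high-fat diet. The vehicle group (STAM, Vehicle) was made diabetic with streptozotocin at 2 days of age and fed a high-fat diet from week 4, a model of non-alcoholic steatohepatitis (NASH), and the I-BET151 group (STAM, I-BET151) had the same history. I-BET151, which blocks the acetyl-lysine pockets of the BET bromodomain proteins, was given by mouth once a day at 10 mg/kg from week 6 to week 9, when the livers were taken. No group had streptozotocin or the diet alone, so diabetes and diet cannot be told apart in the disease comparison. The vehicle was methylcellulose, whereas I-BET151 was suspended in hydroxypropyl methylcellulose with Tween 80, so the compound and its carrier cannot be told apart either.

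NRF2 is a basic leucine zipper transcription factor that is made and destroyed continuously. KEAP1 holds it in the cytoplasm and hands it to a CUL3 ubiquitin ligase, until oxidants or electrophiles modify the cysteines of KEAP1. NRF2 then collects in the nucleus, pairs with a small MAF protein and binds the antioxidant response element in front of genes for glutathione synthesis, thioredoxin reduction, quinone detoxification and haem breakdown. In hepatocytes this programme handles reactive drugs, bile acids and lipid peroxides. Because NRF2 is controlled mostly by its stability, the level of its mRNA is not a measure of its activity.

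The libraries held between 34711229 and 53365596 counts per mouse, and levels below are in CPM, the reads of a gene per megaread of its library after TMM scaling, with the SD over 4 mice. I-BET151 mouse 3 stood apart from the other 11 libraries. Its TMM factor was 1.61 against 0.770 to 1.11, its 10 highest genes took 7.95% of its counts against 13.5 to 18.0%, its mitochondrially encoded genes took 2.71% against 4.51 to 7.30%, and 4 nuclear-retained RNAs (Malat1, Neat1, Meg3 and Kcnq1ot1) summed to 4801 CPM against 824 to 2121. Hepatocyte markers were abundant in every library, the sum of Alb, Apoa1, Ttr, Hnf4a and Cps1 being 96998 to 113145 CPM in healthy, 46812 to 68908 in vehicle and 18008 to 79520 in I-BET151 livers, with mouse 3 the lowest. Values without this mouse are given beside the main results of the I-BET151 group. In whole liver, fewer cells of a type and less RNA per cell cannot be told apart.

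Promoter sequence was searched for the core of the antioxidant response element, the letters TGACNNNGC, and for the related AP-1 type element TGACTCA, both on either strand, in the 250 bases before each annotated start (RefSeq, GRCm38.p6). A site of the second kind whose TGACTCA strand continues with GC matches both. Of 32851 promoter windows, 10.2% held the core and 4.46% the AP-1 type element. Promoters were matched for 6 of the 9 genes (Nfe2l2, Keap1, Nqo1, Gclm, Srxn1 and Txnrd1), with 8 windows in all. The core was found in Nfe2l2, Gclm and a single start of Txnrd1, and the AP-1 type element in Srxn1 alone, at 2 places. The windows of 3 genes are printed because their genes behaved differently below: Srxn1 and Nqo1 rose in the diseased liver and Gclm did not pass the test. They lie at chr2:152105274-152105523 on the plus strand, chr8:107403206-107403455 on the minus strand and chr3:122245307-122245556 on the plus strand, read 5′ to 3′, with matched letters in capitals.
Srxn1: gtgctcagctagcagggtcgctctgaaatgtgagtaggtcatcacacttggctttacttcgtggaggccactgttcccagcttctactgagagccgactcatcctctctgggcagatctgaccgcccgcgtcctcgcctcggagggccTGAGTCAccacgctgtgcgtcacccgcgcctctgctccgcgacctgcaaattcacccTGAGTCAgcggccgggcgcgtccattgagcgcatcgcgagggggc
Nqo1: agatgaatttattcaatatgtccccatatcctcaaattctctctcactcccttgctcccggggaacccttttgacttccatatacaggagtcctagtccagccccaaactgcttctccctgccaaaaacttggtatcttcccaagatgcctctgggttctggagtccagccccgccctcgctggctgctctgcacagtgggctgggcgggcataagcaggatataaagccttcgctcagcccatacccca
Gclm: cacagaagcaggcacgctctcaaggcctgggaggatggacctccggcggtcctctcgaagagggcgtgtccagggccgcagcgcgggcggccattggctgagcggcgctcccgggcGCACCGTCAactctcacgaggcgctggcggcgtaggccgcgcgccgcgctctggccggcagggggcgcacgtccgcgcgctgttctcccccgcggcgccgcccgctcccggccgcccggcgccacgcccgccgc
The Srxn1 sites ended 96 and 39 bases before the start and the Gclm site 126 bases before it. On the printed strand the Srxn1 site nearer the start reads TGAGTCA followed by GC. The search for TGACNNNGC did not cover forms that begin with TGAG, so it does not say that Srxn1 lacks an antioxidant response element here. No match in the Nqo1 window says only that these letters are not in these 250 bases. Among 60 other genes of the pathway, 52 had a promoter entry, with 74 windows. Of these genes 11 held the core and 3 the AP-1 type element in any of their windows. The 10.2% and 4.46% are shares of windows, whereas these are counts of genes, so the scales differ.

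Per kilobase of exon, the catalytic subunit gene of glutathione synthesis, Gclc, had the highest level of the 9 genes in healthy liver, 54.7 ± 5.39 CPM per kb. Gsr (27.4 ± 2.40), Gclm (25.6 ± 2.89) and Nfe2l2 (22.9 ± 2.11) followed, each overlapping its neighbour, and then Txnrd1 (18.7 ± 0.399), Hmox1 (15.96 ± 4.59) and Srxn1 (15.5 ± 1.30), which also overlapped in turn. Keap1 (9.13 ± 0.309) and Nqo1 (4.18 ± 0.488) were the lowest and did not overlap each other. In vehicle livers Gclc remained above all others at 56.5 ± 9.53 CPM per kb, whereas Srxn1 stood next at 36.1 ± 8.97 and Nqo1, at 11.5 ± 3.70, overlapped Keap1 at 8.996 ± 0.732. Srxn1, Hmox1 and Nqo1 thus stood higher in the order than in healthy liver. In I-BET151 livers Gclc (45.96 ± 8.18) and Srxn1 (30.96 ± 7.27) overlapped and Nqo1 (6.43 ± 2.08) had the lowest mean again, overlapping Keap1 (9.29 ± 1.14).

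The comparison of vehicle with healthy livers asks what the diabetic, high-fat state did to these genes. Of the 9 genes 2, Nqo1 and Srxn1, rose, and none fell at an adjusted p of at most 0.05 (edgeR's quasi-likelihood test in a single fit of the 3 groups, Benjamini-Hochberg adjustment over 16823 genes). Over all genes tested, 5.72% were higher and 1.38% lower at this threshold, 7.1% in either direction. The median log2 fold change of the 9 was 0.18 against 0.0089 for all genes tested, and 6 were above 0 and 3 below.

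Nqo1 encodes the quinone reductase that is the classic readout of NRF2 activity (ENSMUSG00000003849, chromosome 8 from 107388225 to 107403206, minus strand in GRCm38, as all positions here). It stood at 5.87, 6.33, 6.16 and 7.59 CPM in healthy livers 1 to 4, at 21.2, 12.1, 24.2 and 13.9 CPM in vehicle livers and at 10.02, 14.1, 6.22 and 9.63 CPM in I-BET151 livers. Every vehicle liver was above every healthy liver, and vehicle mice 1 and 3 were the highest of all 12. From healthy to vehicle it rose 2.75-fold, from 6.49 ± 0.758 to 17.8 ± 5.75 CPM (log2 fold change 1.46, SE 0.25, adjusted p = 0.00428, 95% interval 0.91 to 2.01).

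Srxn1 encodes sulfiredoxin, which restores over-oxidised peroxiredoxins (ENSMUSG00000032802, chromosome 2 from 152105516 to 152111376, plus strand). Healthy livers had 41.3, 44.6, 48.5 and 40.4 CPM, vehicle livers 112, 76.3, 133 and 86.8 and I-BET151 livers 99.7, 105, 59.6 and 84.5. Neither STAM group overlapped the healthy group, and vehicle mice 1 and 3 were again the highest vehicle mice. The rise from healthy (43.7 ± 3.66 CPM) to vehicle (102 ± 25.3 CPM) was 2.33-fold (log2 fold change 1.22, SE 0.20, adjusted p = 0.00322, 95% interval 0.79 to 1.65). Both calls were also made by DESeq2, at adjusted p = 1.29e-05 for Nqo1 and 6.35e-06 for Srxn1, where 9.95% of all genes passed. With the sequencing lane as a covariate neither passed edgeR's test (adjusted p = 0.132 and 0.164), the 12 libraries being spread over 6 lanes. That fit estimated 3 groups and 6 lanes from 12 mice, and the share of all genes it called was not worked out. The loss of these calls can therefore not be told from a loss over all genes. Lane 2 alone held both a healthy and a vehicle mouse, with Nqo1 at 5.87 and 13.9 CPM and Srxn1 at 41.3 and 86.8 CPM.

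Hmox1 encodes haem oxygenase 1, which degrades haem to biliverdin, carbon monoxide and iron and is also strongly expressed by macrophages (ENSMUSG00000005413, chromosome 8 from 75093621 to 75100589, plus strand). It was at 39.8, 25.6, 24.01 and 22.3 CPM in healthy, 32.7, 50.4, 51.5 and 53.6 CPM in vehicle and 60.7, 46.3, 25.2 and 51.9 CPM in I-BET151 livers. The healthy and vehicle groups overlapped through healthy mouse 1 and vehicle mouse 1. The vehicle mean was 1.68 times the healthy mean (log2 fold change 0.75, SE 0.26, adjusted p = 0.0971), short of the threshold. It passed in the fit of these 2 groups alone (adjusted p = 0.0241, beside 23.9% of all genes called in that fit), without I-BET151 mouse 3 (0.0181, beside 22.3%) and without healthy mouse 1 (0.0432), all from edgeR's test, and in DESeq2 without I-BET151 mouse 3 (0.00303, beside 23.4%). Macrophage markers were read beside it. A list of 8 (Adgre1, Clec4f, Cd68, Csf1r, Vsig4, Marco, Timd4 and Cd163) summed to 167 to 245 CPM in healthy, 273 to 494 in vehicle and 217 to 466 in I-BET151 livers. Between vehicle and healthy livers 7 of the 8 were above 0 and 1 below, and 4 passed the test as higher in vehicle. The mouse with the lowest sum in the vehicle group (mouse 1) and in the I-BET151 group (mouse 3) also had the lowest Hmox1 there, and their part in the Hmox1 difference was not tested.

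Txnrd1, the cytosolic thioredoxin reductase, had a small difference with very little spread (ENSMUSG00000020250, chromosome 10 from 82833951 to 82897712, plus strand). Healthy livers lay between 128 and 134 CPM and vehicle livers between 148 and 151 CPM, without overlap. The fold was 1.13 (log2 fold change 0.18, SE 0.15, adjusted p = 0.524). In all, 3 of the 9 genes (Nqo1, Srxn1 and Txnrd1) separated every vehicle from every healthy liver upwards and none downwards, beside 14.2% and 12.2% of all genes tested (26.4% in either direction).

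The other target genes did not pass the test. Gclc (ENSMUSG00000032350, chromosome 9 from 77754535 to 77794485, plus strand) and Gclm (ENSMUSG00000028124, chromosome 3 from 122245557 to 122270732, plus strand) encode the catalytic and the modifier subunit of glutamate-cysteine ligase, the first step of glutathione synthesis. Gclc was at 176, 219.8, 213 and 215 CPM in healthy and 264, 194, 209.7 and 184 CPM in vehicle livers (log2 fold change 0.048, SE 0.17, adjusted p = 0.899). Gclm was at 135, 171, 175 and 162 CPM and 171, 150.01, 163 and 153 CPM (log2 fold change -0.015, SE 0.24, adjusted p = 0.981). Their 95% intervals, -0.32 to 0.41 and -0.53 to 0.50 on the log2 scale, did not reach the size of the rise of Nqo1 or Srxn1. The groups overlapped in both genes, and vehicle mouse 1 had the most Gclc. Gsr, which reduces glutathione disulfide with NADPH (ENSMUSG00000031584, chromosome 8 from 33652523 to 33698163, plus strand), was at 70.8, 80.1, 81.9 and 68.6 CPM in healthy and 68.7, 60.9, 68.8 and 72.7 CPM in vehicle livers (log2 fold change -0.15, SE 0.22, adjusted p = 0.731, 95% interval -0.63 to 0.32).

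**Figure D1:**
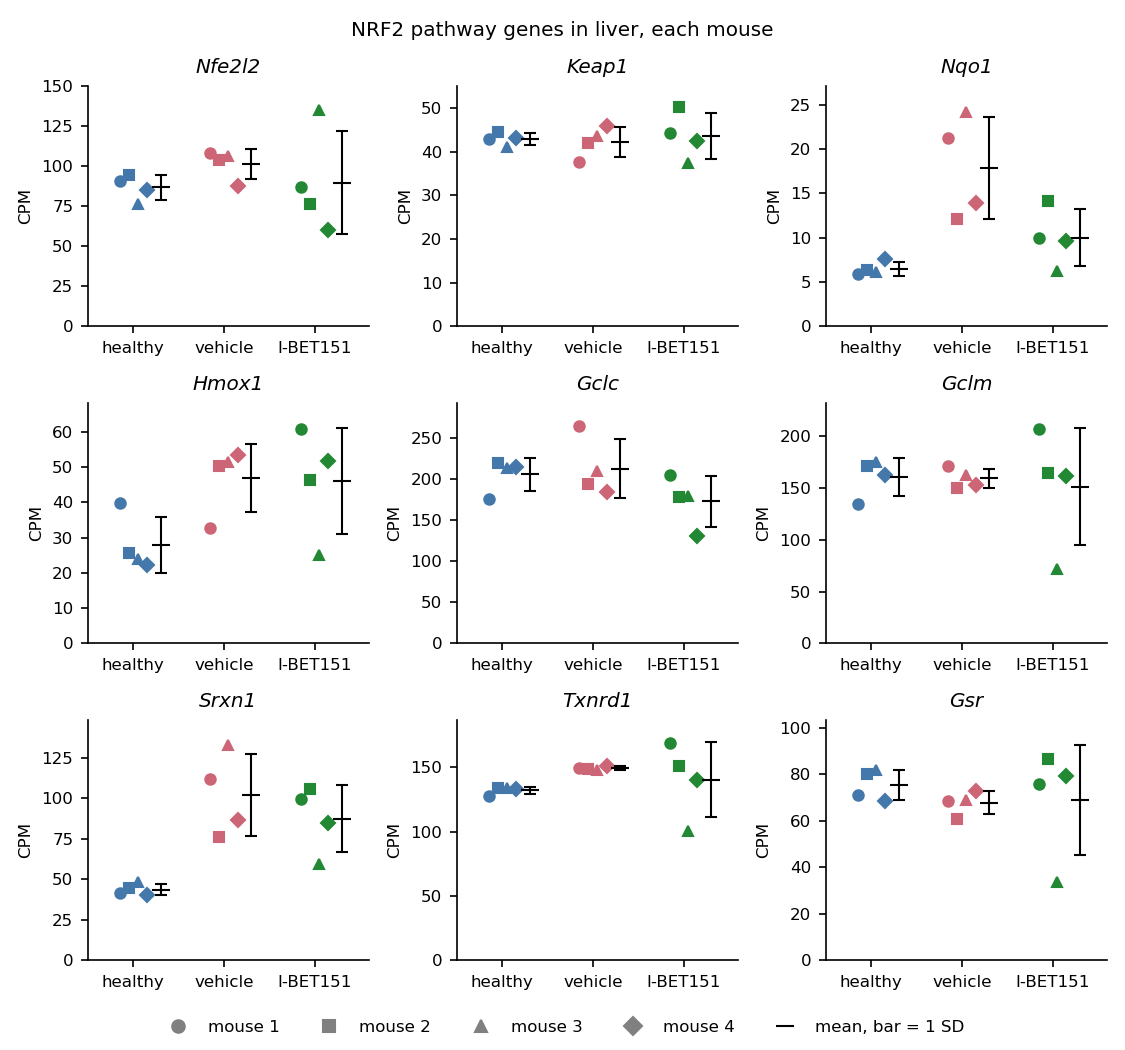
CPM of each of the 9 genes in every mouse (symbols mark mice 1 to 4 of a group, numbers are not read as pairs across groups) with the group mean and 1 SD. Nqo1 and Srxn1 are higher in all 4 vehicle than in all 4 healthy livers, and I-BET151 mouse 3 (triangle) is the lowest I-BET151 mouse in 7 of the 9 panels and the highest in that of Nfe2l2.

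The factor and its inhibitor were examined next. Nfe2l2 (ENSMUSG00000015839, chromosome 2 from 75675513 to 75704641, minus strand) was at 91.1, 94.7, 76.3 and 85.1 CPM in healthy, 108, 104, 106 and 87.8 in the vehicle and 87.1, 76.1, 135 and 60.4 in the I-BET151 group. The groups overlapped, and I-BET151 mice 3 and 4 were the highest and the lowest of the 12. Vehicle against healthy gave 0.23 (adjusted p = 0.551) on the log2 scale. Keap1 (ENSMUSG00000003308, chromosome 9 from 21229730 to 21239361, minus strand) varied little, at 42.8, 44.5, 40.96 and 43.2 CPM in healthy, 37.6, 41.9, 43.6 and 45.7 in vehicle and 44.3, 50.3, 37.4 and 42.4 CPM in I-BET151-treated livers. The log2 fold change between vehicle and healthy was -0.021 (adjusted p = 0.934), with a 95% interval of -0.26 to 0.22. An antisense gene, Gm16754, overlaps Keap1 with 35 to 311 counts a library. The strand setting of the counting is not given in the sources used here, so it is not known how reads of the overlap were counted or whether they were lost. Gclm likewise overlaps Gm17494 on the other strand, at 14 to 97 counts.

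The log2 ratio of Nfe2l2 to Keap1 counts does not depend on the scaling between libraries. It was 1.01 ± 0.093 (SD, n = 4) in healthy, 1.26 ± 0.24 in vehicle and 0.98 ± 0.61 in the I-BET151 group. Vehicle exceeded healthy by 0.25 (two-sided exact permutation p = 0.114, 0.686 after Benjamini-Hochberg adjustment over 6 tests). Vehicle mice 1 to 3 had 1.52, 1.31 and 1.29, above all healthy mice, whereas vehicle mouse 4 had 0.94. With 4 mice against 4 the smallest p this test can give is 0.0286.

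**Figure D2:**
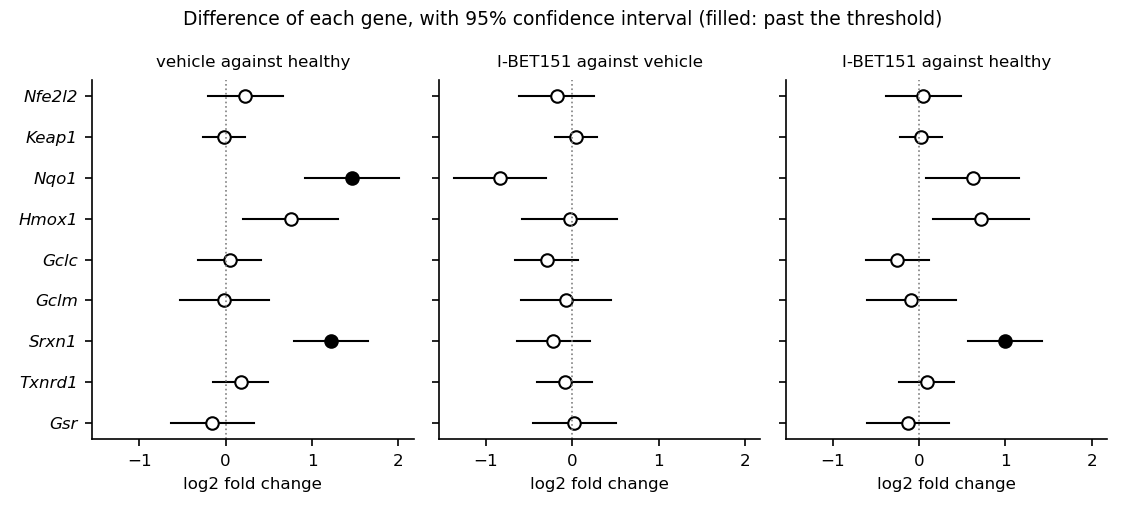
Log2 fold change of each gene in the 3 comparisons (points, filled where the adjusted p passed the threshold of 0.05, or 0.1 for I-BET151 against vehicle) with its 95% interval (lines). Only Nqo1 and Srxn1 are filled for vehicle against healthy, only Srxn1 for I-BET151 against healthy, and no gene for I-BET151 against vehicle.

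The comparison of I-BET151 with vehicle asks whether BET inhibition altered these genes in the diseased liver. None of the 9 passed the threshold of 0.1 set for this comparison, in edgeR's test or in DESeq2 with all 12 mice, while 0.351% of all genes passed in edgeR (0.0951% higher and 0.256% lower). The share was 1.5% in DESeq2 and 0.048% in a fit of the 2 groups alone, which called none of the 9 either. A single gene of the 9 (11.1%), Nqo1, had an unadjusted p under 0.05 in either tool, beside 8.68% of all genes in edgeR. The median log2 fold change of the 9 was -0.090 against 0.024 for all genes tested, with 2 above 0 and 7 below. No gene separated the groups, beside 5.04% of all genes tested that did so in either direction.

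Nqo1 had the largest difference, 9.99 ± 3.23 CPM after I-BET151 against 17.8 ± 5.75 in vehicle (log2 fold change -0.84, SE 0.25, adjusted p = 0.294, 95% interval -1.38 to -0.31). The groups overlapped through I-BET151 mouse 2 at 14.1 CPM and vehicle mice 2 and 4. Without I-BET151 mouse 3 its log2 fold change was -0.66 (adjusted p = 0.165). In the 3 lanes that held a mouse of each of these groups Nqo1 was lower in the I-BET151 mouse, at 10.02 against 21.2, 6.22 against 24.2 and 9.63 against 13.9 CPM. Srxn1 differed by -0.22 (adjusted p = 0.818, 95% interval -0.65 to 0.20), and by -0.068 (adjusted p = 0.864) without I-BET151 mouse 3. Srxn1 was also lower in 3 of 3 such pairs, at 99.7 against 112, 59.6 (mouse 3) against 133 and 84.5 against 86.8 CPM. The last of these pairs was nearly equal. Gclc was lower in 3 of 3 as well, and the rest of the 9 genes had pairs in both directions. I-BET151 mouse 2 shared no lane with a vehicle mouse, so these pairs leave it out. The log2 fold change of Hmox1 was -0.033 (adjusted p = 0.988) with an interval of -0.58 to 0.52, and 0.18 (adjusted p = 0.686) without mouse 3.

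The genes of glutathione synthesis and reduction did not pass either. Gclc was at 204, 178, 179 and 131 CPM after I-BET151, -0.30 (adjusted p = 0.669) against vehicle, with vehicle mouse 1 the highest and I-BET151 mouse 4 the lowest of the 12 livers. Gclm was at 207, 165, 72.2 and 161 CPM, -0.073 (adjusted p = 0.971) against vehicle, and Gsr at 75.9, 86.6, 33.8 and 79.2 CPM, 0.023 (adjusted p = 0.990). In Gclm and Gsr mouse 3 had less than any other liver, and the other 3 I-BET151 mice lay within or above the vehicle range. Txnrd1 was at 169, 151, 101 and 140.5 CPM after I-BET151 and differed from vehicle by -0.090 (adjusted p = 0.924), a spread wider than the 148 to 151 CPM of vehicle mice.

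I-BET151 mouse 3 lay at an end of its group for most of the genes. It was the lowest I-BET151 mouse for 7 of the 9 genes (Keap1, Nqo1, Hmox1, Gclm, Srxn1, Txnrd1 and Gsr), the lowest of all 12 for 4 of them (Keap1, Gclm, Txnrd1 and Gsr) and the highest of all 12 for Nfe2l2. None of the 7 target genes was above its median over 12 mice in this liver, whereas 7 of 7 were in I-BET151 mouse 1 and 6 of 7 in mouse 2. All these ranks are of CPM after TMM scaling, where the factor of mouse 3 was 1.61 against 0.770 to 1.11 in the other libraries. A larger factor lowers every CPM of a library, so the ranks depend on it. They were not worked out without this scaling. Without mouse 3, 5 of the 9 genes were above 0 and 4 below against vehicle, with a median of 0.050, so the median of the 9 changed sign. Nfe2l2 then averaged 74.5 ± 13.4 CPM (n = 3) and its log2 fold change was -0.44 (adjusted p = 0.121), with an interval of -0.71 to -0.16. Gsr moved to 0.26 (adjusted p = 0.190), Gclm to 0.17 (adjusted p = 0.495) and Txnrd1 to 0.050 (adjusted p = 0.801), whereas Gclc had -0.31 (adjusted p = 0.357) and Keap1 0.12 (adjusted p = 0.504). DESeq2 without mouse 3, chosen after the data had been seen, called Nfe2l2 (-0.43, adjusted p = 0.0375) and Nqo1 (-0.65, adjusted p = 0.0811) lower, beside 8.32% of all genes called in that fit. Without it edgeR called none of the 9, with 2.38% of all genes called from the 3 groups and 1.48% from these 2 groups.

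The log2 ratio of Gclm to Gclc compares the modifier with the catalytic subunit within a liver. It was -0.38, -0.36, -0.28 and -0.41 in healthy, -0.63, -0.37, -0.37 and -0.26 in vehicle and 0.017, -0.11, -1.31 and 0.30 in I-BET151 livers. I-BET151 mice 1, 2 and 4 were above all 8 other mice, and mouse 3 was below them all. With all 4 mice the ratio differed between I-BET151 and vehicle by 0.13 (two-sided exact permutation p = 0.800, 0.914 after Benjamini-Hochberg adjustment over 6 tests), and between vehicle and healthy by -0.048 (two-sided exact permutation p = 0.800, 0.914 after Benjamini-Hochberg adjustment over 6 tests). Without mouse 3, I-BET151 exceeded vehicle by 0.48 (exact permutation p = 0.0571) and healthy by 0.43 (exact permutation p = 0.0571), the smallest p that 3 mice against 4 can give. For Nfe2l2 to Keap1, I-BET151 differed from vehicle by -0.28 (two-sided exact permutation p = 0.429, 0.914 after Benjamini-Hochberg adjustment over 6 tests), and without mouse 3 by -0.57 (exact permutation p = 0.114).

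**Figure D3:**
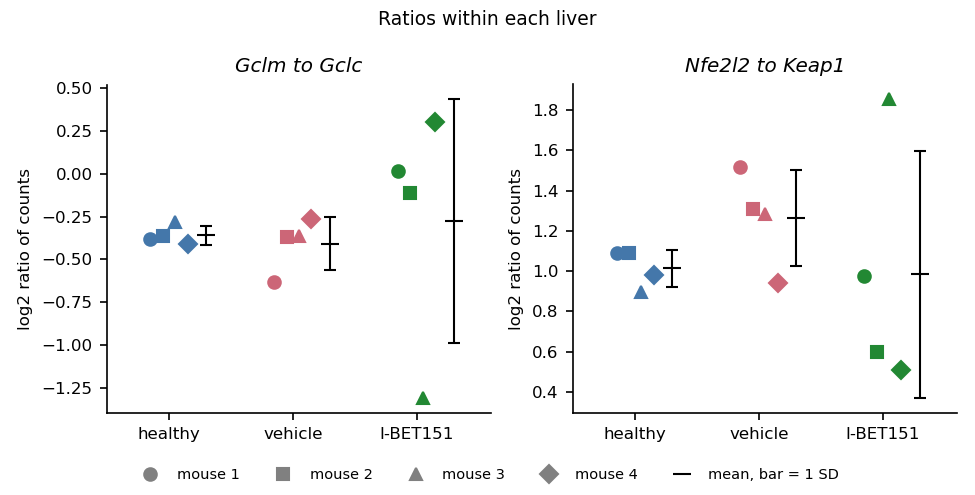
Log2 ratio of counts within each liver for Gclm over Gclc and for Nfe2l2 over Keap1, by mouse, with the group mean and 1 SD. I-BET151 mice 1, 2 and 4 lie above every healthy and vehicle mouse in Gclm to Gclc, whereas mouse 3 lies at the far end of both ratios.

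I-BET151 livers were also compared with healthy livers, which asks how far treated animals stood from the undiseased state. These values share the I-BET151 group with the treatment comparison and the healthy group with the disease comparison. Srxn1 was higher (1.998-fold, log2 fold change 1.00, SE 0.20, adjusted p = 0.00611, and 1.13 without mouse 3) and was the only 1 of the 9 genes past the threshold of 0.05, beside 9.88% of all genes higher, 5.25% lower and 15.1% in either direction. DESeq2 and a fit of the 2 groups alone also called Srxn1 and no other of the 9, beside 18.0% and 7.88% of all genes. It separated the groups completely, beside 10.9% of all genes that did so upwards and 8.85% downwards (19.8% in either direction). Nqo1 (0.62, adjusted p = 0.108) and Hmox1 (0.72, adjusted p = 0.0741) were above 0 without passing, and the 95% intervals of both, 0.078 to 1.16 and 0.16 to 1.27, lay above 0. Both passed without mouse 3, at 0.78 (adjusted p = 0.0305) and 0.91 (adjusted p = 0.00906), which brought the count to 3 of 9, beside 20.4% of all genes called in that fit. Without healthy mouse 1, Hmox1 also passed (0.95, adjusted p = 0.0315). Without mouse 3 a fit of the 2 groups alone called 3 of 9 beside 16.1% of all genes, and DESeq2 4 of 9 beside 21.3%. With the lane as a covariate Srxn1 did not pass (0.152, adjusted p from edgeR), and the share of all genes called in that fit was not worked out. The median of the 9 was 0.047 beside 0.061 for all genes tested.

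The wider pathway was read from a list of 60 further genes, of which 59 passed the filter on low counts (Aldh3a1 did not). The list was drawn up with earlier results of these data known, which limits what its counts mean beside the shares of all genes. In vehicle against healthy livers 11 of the 59 were higher and none lower in edgeR's test, beside 5.72% and 1.38% of all genes, with a median log2 fold change of 0.17 against 0.0089 for all genes tested. Every vehicle liver was above every healthy liver for 18 of the 59 and below for 6, beside 14.2% and 12.2% of all genes. At an unadjusted p under 0.05, 19 were higher and 1 lower (33.9% of the 59), beside 22.3% of all genes. DESeq2 called 14 higher and 1 lower (Txnrd2, -0.40, adjusted p = 0.0321), beside 9.95% of all genes. The increases were in the glutathione supply, quinone and aldehyde detoxification, glutathione transferase, NADPH, efflux and small MAF groups. Without I-BET151 mouse 3, which is in neither group but enters the shared estimate of spread, 18 were higher and 4 lower (Rbx1, Txnrd2, Sod1 and Fech, named after their values were seen), beside 22.3% of all genes in either direction. Without healthy mouse 2 or healthy mouse 3, 7 were called, and with the lane as a covariate none was (0 of 59 in edgeR). The shares of all genes called in these fits were not worked out. The lane fit estimated 3 groups and 6 lanes from 12 mice. In it the median of the 59 was 0.46, with 53 above 0 and 6 below, beside 0.032 for all genes tested.

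Among the genes that supply and use glutathione, 3 of 8 rose. Slc7a11, the cystine importer that feeds glutathione synthesis, was at 0.213, 0.424, 0.174 and 0.173 CPM in healthy and 1.85, 0.933, 2.09 and 1.44 CPM in vehicle livers (log2 fold change 2.66, SE 0.39, adjusted p = 0.00139). Gpx2, a glutathione peroxidase best known from gut epithelium, had only 1 to 3 counts per healthy library and 21 to 46 per vehicle library. The ratio of its summed counts was 15.6 (95% exact counting interval 7.38 to 39.6, counting error only), and its adjusted p was 0.000888. Ggt1, which breaks down glutathione outside the cell, rose from 0.196 ± 0.105 to 0.641 ± 0.0562 CPM (log2 fold change 1.66, SE 0.35, adjusted p = 0.0127). The ligase that completes glutathione, Gss, had 0.26 (adjusted p = 0.414), and the lipid peroxide reductase Gpx4 0.16 (adjusted p = 0.662).

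In the group for quinones, aldehydes and epoxides 3 of 9 rose and all 9 were above 0. Cbr3, a carbonyl reductase, was at 0.766, 0.583, 0.581 and 0.661 CPM in healthy and 5.19, 2.86, 12.01 and 2.74 CPM in vehicle livers (log2 fold change 3.13, SE 0.46, adjusted p = 0.00169), vehicle mouse 3 being the highest. The prostaglandin reductase gene Ptgr1 rose from 1.03 ± 0.148 to 2.21 ± 0.718 CPM (log2 fold change 1.10, SE 0.29, adjusted p = 0.0350). Cyp2a5, a coumarin-metabolising cytochrome P450, rose from 386 ± 87.7 to 1079.9 ± 364 CPM (log2 fold change 1.48, SE 0.33, adjusted p = 0.0159). It has near-identical relatives such as Cyp2a4, and only unique alignments were counted, so reads that fit several of them may be missing from its counts. Ugdh, which makes UDP-glucuronate, had 0.63 (adjusted p = 0.0942).

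Glutathione transferases had 2 of 7 genes called and 7 of 7 above 0. Gstm3 was at 12.3, 13.7, 13.1 and 13.1 CPM in healthy and 50.7, 34.9, 60.4 and 26.5 CPM in vehicle livers (log2 fold change 1.72, SE 0.29, adjusted p = 0.00354), a complete separation. Gsta1 rose from 3.27 ± 1.17 to 13.7 ± 6.14 CPM (log2 fold change 2.06, SE 0.44, adjusted p = 0.0135). Both belong to families of near-identical genes and are uncertain for that reason.

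NADPH, which thioredoxin and glutathione reductases consume, had 1 of 6 genes called. Pgd, the second dehydrogenase of the pentose phosphate pathway, was at 29.6, 26.9, 29.1 and 26.9 CPM in healthy and 48.7, 47.2, 56.5 and 47.6 CPM in vehicle livers (log2 fold change 0.83, SE 0.11, adjusted p = 0.000686). G6pdx, which catalyses the step before it, had 0.44 (adjusted p = 0.145), and malic enzyme Me1, also a lipogenic gene, had -0.33 (adjusted p = 0.293). Of the 3 efflux transporters Abcc4 rose (log2 fold change 0.63, SE 0.17, adjusted p = 0.0399). Of 12 genes that control NRF2, the small MAF gene Mafk rose from 18.2 ± 0.814 to 26.97 ± 3.85 CPM (log2 fold change 0.56, SE 0.13, adjusted p = 0.0172). Of the others, 4 named by rule did not pass, with -0.031 for the repressor Bach1, -0.063 for Mafg, -0.12 for the related factor Nfe2l1 and 0.42 for Sqstm1, the autophagy adaptor that binds KEAP1 (adjusted p from 0.278 to 0.927). Sqstm1 nevertheless separated the groups, at 439 to 498 CPM in healthy and 506 to 813 CPM in vehicle livers.

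In 3 groups no gene passed edgeR's threshold in this comparison. In the thioredoxin and peroxiredoxin group 1 of 4 had an unadjusted p under 0.05, beside 22.3% of all genes, and DESeq2 called 1, while Txn1 (0.0054) and Prdx1 (0.032) were close to 0. In the haem and iron group 1 of 6 had an unadjusted p under 0.05, and among the superoxide dismutases and catalase 1 of 4 did, and DESeq2 called none in either group.

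**Figure D4:**
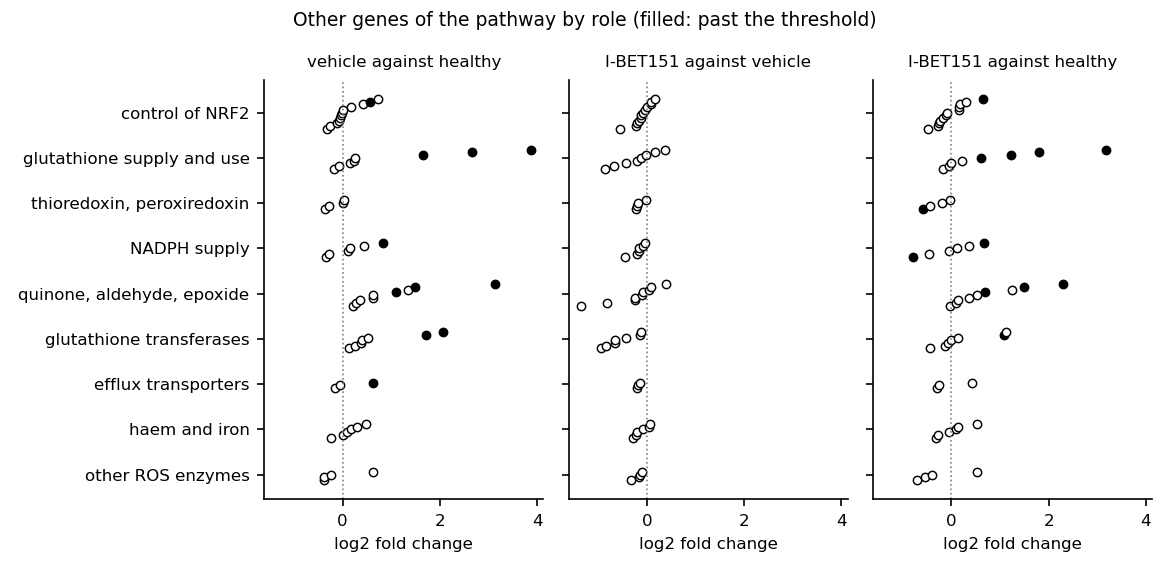
Log2 fold change of each of the 59 further pathway genes by role in the 3 comparisons, filled where the adjusted p passed the threshold (0.05, or 0.1 for I-BET151 against vehicle). Filled points lie to the right for vehicle against healthy, where 11 are filled, none is filled for I-BET151 against vehicle, and 10 lie right and 2 left for I-BET151 against healthy.

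Between I-BET151 and vehicle none of the 59 passed in edgeR's test. The median was -0.17 against 0.024 for all genes tested, with 10 above 0 and 49 below. At an unadjusted p under 0.05, 1 gene was higher and 7 were lower (13.6% of the 59), beside 8.68% of all genes. DESeq2 called 2 lower, beside 1.5% of all genes, Cyp2a5 (-1.36, adjusted p = 0.00434) and Gstm2 (-0.67, adjusted p = 0.0605). Without mouse 3 the balance was 25 above 0 and 34 below with a median of -0.027, much nearer the median of all genes, 0.0042. Cyp2a5 was at 1618, 819.99, 921 and 961 CPM in vehicle and 324, 744, 353 and 269 CPM in I-BET151 livers. Every I-BET151 liver was below every vehicle liver, and mice 1 and 3 lay within the healthy range of 311 to 500.03 CPM (log2 fold change -1.35, SE 0.33, adjusted p = 0.155). Without mouse 3 its log2 fold change was -1.27 (adjusted p = 0.107). Gstm2 stood at 57.1, 50.2, 59.2 and 50.5 CPM in vehicle and 33.6, 36.6, 23.04 and 43.6 CPM after I-BET151, also without overlap (log2 fold change -0.67, SE 0.17, adjusted p = 0.168), and passed in edgeR without I-BET151 mouse 3 (-0.51, adjusted p = 0.0578), beside 2.38% of all genes called. Without I-BET151 mouse 2, Cyp2a5 (-1.78, adjusted p = 0.0302) and Gsta2 (-1.57, adjusted p = 0.0358) passed, and the share of all genes called in that fit was not worked out. Gstm2 and Gsta2 were named after their values were seen. In all, 4 of the 59 were completely lower (Ggt1, Pgd, Cyp2a5 and Gstm2) and 1 completely higher (Btrc), beside 2.63% and 2.41% of all genes tested.

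The genes that rose from healthy to vehicle were chosen with the vehicle group that I-BET151 is compared with, so their values are given side by side and nothing is read from their direction. Slc7a11 had 0.876 ± 0.271 CPM after I-BET151 (-0.86 against vehicle, adjusted p = 0.484, and -0.66 without mouse 3), Gstm3 27.5 ± 12.3 CPM (-0.65, adjusted p = 0.535, and -0.48 without mouse 3), Gsta1 7.14 ± 4.90 CPM (-0.94, adjusted p = 0.550, and -0.77 without mouse 3) and Cbr3 3.24 ± 1.04 CPM (-0.82, adjusted p = 0.614, and -0.64 without mouse 3). Mafk had 0.078 (adjusted p = 0.924) and Ptgr1 0.39 (adjusted p = 0.762).

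Against healthy livers, 10 of the 59 were higher and 2 lower after I-BET151, beside 9.88% and 5.25% of all genes. Gpx2 (summed count ratio 9.35, exact counting interval 4.34 to 24.01), Cbr3 (2.31, adjusted p = 0.00602), Slc7a11 (1.81, adjusted p = 0.00898), Ptgr1 (1.49, adjusted p = 0.00509), Ggt1 (1.22, adjusted p = 0.0334) and Gstm3 (1.07, adjusted p = 0.0237) had the largest rises. Pgd (0.66, adjusted p = 0.00181), Mafk (0.64, adjusted p = 0.00589), Ugdh (0.68, adjusted p = 0.0479) and the amino acid transporter chain Slc3a2 (0.61, adjusted p = 0.0296) were also higher. Without overlap, 10 of the 59 lay above and 4 below healthy livers, beside 10.9% and 8.85% of all genes. Lower were Me1, from 156 ± 19.9 to 90.2 ± 22.1 CPM (-0.79, adjusted p = 0.0111), and the mitochondrial thioredoxin reductase Txnrd2 (-0.58, adjusted p = 0.00541). Without mouse 3 these 12 passed in the same direction, and in all 14 were higher and 4 lower (Me1, Txnrd2, Mafg and Sod1, of which Sod1 was named after its values were seen), beside 20.4% of all genes in either direction.

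**Figure D5:**
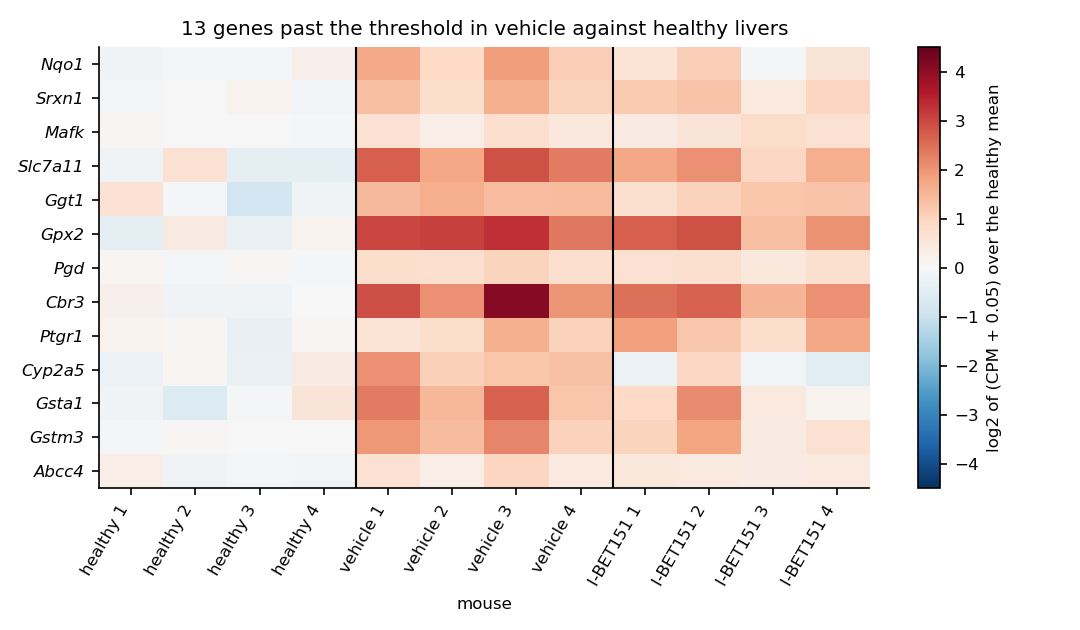
The 13 genes, from the 9 and the list together, past the threshold in vehicle against healthy livers, in every mouse, as the log2 of CPM plus 0.05 over the healthy mean plus 0.05 (red above, blue below). Vehicle mice 1 and 3 are the 2 darkest vehicle mice for 9 of the 13 genes, I-BET151 mouse 2 is the darkest I-BET151 mouse for 9, and I-BET151 mouse 3 is near 0 for Nqo1 and Cyp2a5.

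Most of the 13 genes had the same mice on top. Vehicle mice 1 and 3 were the 2 highest vehicle mice for 9 of 13 (69.2%, Nqo1, Srxn1, Mafk, Slc7a11, Pgd, Cbr3, Gsta1, Gstm3 and Abcc4), against 25.4% of all 963 genes that rose. I-BET151 mouse 2 was the highest I-BET151 mouse for 9 of 13 (69.2%), against 11.6% of the 963. This pattern was chosen after the values were seen, the genes are not independent of each other, and no test was made of it. Hmox1 differed, being lowest in vehicle mouse 1, and Gclc and Gclm had I-BET151 mouse 1 rather than mouse 2 on top.

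Over the 12 mice, the genes whose standardised log2 CPM was most like the mean of the 7 target genes were Srprb, Krt8, Gbe1, Psmd7 and Prpf19, with a mean absolute difference of 0.220 to 0.293 SD. The profile they follow was -1.63 SD in I-BET151 mouse 3 and between -0.57 and 0.76 SD in the other 11 mice, and all 12 points share their scaling.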

How the data were processed

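Livers of 12 mice were profiled by stranded poly(A) RNA sequencing, 1 library per mouse. Per the labels and the study's methods the authors aligned reads to mm10 with STAR 2.5.1b, kept unique alignments and counted them per gene with HTSeq, and the deposited values are raw counts per Ensembl gene. The counting's strand setting and annotation release are not given in the sources used here. Of 47729 identifiers 47310 matched GENCODE M21, the source of symbols and positions. Groups follow the labels, and that replicates are separate mice follows from the study's description. The study left out a single I-BET151 sample without naming it, and all 4 were used here. Lanes were read from the names of the count tables. Those names point to featureCounts rather than HTSeq, and their replicate numbers differ from those of the sample titles. Mouse numbers here are those of the titles.

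Counts were filtered (filterByExpr, minimum count 10, leaving 16823 genes), TMM-normalised and fitted with edgeR 4.0.16 in R 4.3.3 (quasi-likelihood, 3 groups, Benjamini-Hochberg adjustment). Thresholds were an adjusted p of 0.05 in both comparisons with healthy mice and 0.1 for I-BET151 against vehicle. SEs were derived from the quasi-likelihood F, and intervals are at 95%. Within-liver ratios took log2 of counts plus 0.5 and were compared by exact permutation over mice. DESeq2 1.42.0, other normalisations and filters, 2-group fits, a replicate block, the lane as covariate and leaving out each mouse were alternatives, and the gene-wise tests were tested on simulated data. Fits by DESeq2 or on 2 groups without I-BET151 mouse 3 were added after the data had been seen. Libraries held 34711229 to 53365596 counts, which sets the counting precision. Motifs were searched with Python 3.11.15 and pandas 2.3.3 in RefSeq promoters, and figures were drawn with Matplotlib 3.10.9.

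The 9 genes, the 60-gene list and the markers were chosen with earlier results of these data known. Named were all 9 genes, the list genes past the threshold (at most the 10 largest changes per comparison), 11 list genes fixed by name (Bach1, Mafg, Sqstm1, Nfe2l1, Slc7a11, Gss, Txn1, Prdx1, G6pdx, Me1 and Gpx4) and the 5 genes most like the mean of the 7 targets. Tf, a hepatocyte marker, was not matched.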

Additional observations from a re-analysis of the deposited data

Results flagged for a closer look

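In 99 groups of 4 mice (mostly the named genes in each group), 7 had a mouse whose gap to its nearest neighbour took most of the group's range (Dixon's criterion), where chance gives about 1 in 20. Among the 9 genes these were Hmox1 in vehicle mouse 1, at 32.7 CPM and below the other vehicle mice, and Gclc and Txnrd1 in healthy mouse 1, at 175.8 and 128.0 CPM and below the other healthy mice. I-BET151 mouse 3, the library that stood apart, had the most Mafg of its group, 266 CPM, and the least Prdx1, 236 CPM. Pgd stood at 56.5 CPM in vehicle mouse 3, above the rest of its group, and Slc7a11 at 0.424 CPM in healthy mouse 2, above the other healthy mice.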

How the results depend on the processing

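Of 2006 fold changes of named genes under the alternatives, 1754 kept their direction and side of the threshold, 75 lost a call, 47 gained a call and 130 changed sign. Nqo1 and Srxn1 passed in vehicle against healthy livers in 20 of 21 alternatives each, the exception being the lane covariate, and Srxn1 in 21 of 22 in I-BET151 against healthy livers, with the same exception. Hmox1 passed in 5 of 21 in vehicle against healthy livers. The settings below changed a call, a count by over 1.5 times or a sign, and the cause was not tested. Shares of all genes called are given above for DESeq2, 2-group fits and fits without I-BET151 mouse 3. For the other settings they were not worked out, so those counts stand without them. With the lane covariate the median of the 9 in vehicle against healthy was 0.34, with 8 above 0 and 1 below, beside 0.032 for all genes tested. With scaling by library size alone, which moved the median of all genes to 0.28, 0.13 and 0.46 in the 3 comparisons, the calls were 4 of the 9 genes and 21 list genes in vehicle against healthy, 4 of the 9 genes and 24 list genes in I-BET151 against healthy and log2 fold changes of opposite sign were Keap1 0.25, Gclm 0.27, Gsr 0.13, Bach1 0.25, Mafg 0.20, Nfe2l1 0.16 (vehicle against healthy), Nfe2l2 0.036, G6pdx 0.018, Gss 0.016, Mafg 0.23 (I-BET151 against vehicle), Gclc 0.16, Gclm 0.21, Gsr 0.16, Bach1 0.13, Gpx4 0.26, Mafg 0.43, Nfe2l1 0.12, Prdx1 0.091, Txn1 0.26 (I-BET151 against healthy). With lane in the model the calls were 0 of the 9 genes and 0 list genes in vehicle against healthy, 0 of the 9 genes and 0 list genes in I-BET151 against healthy and log2 fold changes of opposite sign were Nfe2l2 -0.14, Keap1 0.13, Gclm 0.34, Gsr 0.36, Bach1 0.088, Nfe2l1 0.10 (vehicle against healthy), Keap1 -0.014, Hmox1 0.0058, Gsr -0.22, G6pdx 0.023, Ugdh -0.21 (I-BET151 against vehicle), Nfe2l2 -0.29, Gclm 0.065, Gsr 0.14, Gpx4 0.054, Txn1 0.11 (I-BET151 against healthy). With fits of only the 2 groups compared the calls were 24 list genes in vehicle against healthy and log2 fold changes of opposite sign were Txn1 -0.0091 (vehicle against healthy). With DESeq2 without I-BET151 mouse 3 the calls were 25 list genes in vehicle against healthy, 2 of the 9 genes and 4 list genes in I-BET151 against vehicle, 4 of the 9 genes and 22 list genes in I-BET151 against healthy and log2 fold changes of opposite sign were Txn1 -0.012 (vehicle against healthy), Hmox1 0.18, Gclm 0.17, Txnrd1 0.054, Gss 0.13, Prdx1 0.037, Sqstm1 0.060, Txn1 0.22 (I-BET151 against vehicle), Nfe2l2 -0.22, Gclm 0.14, Gsr 0.092, Gpx4 0.11, Prdx1 0.051, Txn1 0.21 (I-BET151 against healthy). With DESeq2 the calls were 2 list genes in I-BET151 against vehicle and log2 fold changes of opposite sign were Txn1 -0.017 (vehicle against healthy), Keap1 -0.0054 (I-BET151 against healthy). With no filter on low counts the calls were 1 list gene in I-BET151 against vehicle. With fits of only 2 groups without I-BET151 mouse 3 the calls were 1 list gene in I-BET151 against vehicle, 3 of the 9 genes in I-BET151 against healthy and log2 fold changes of opposite sign were Hmox1 0.17, Gclm 0.16, Txnrd1 0.040, Gss 0.12, Prdx1 0.024, Sqstm1 0.047, Txn1 0.21 (I-BET151 against vehicle), Nfe2l2 -0.21, Gclm 0.15, Gsr 0.10, Gpx4 0.12, Prdx1 0.063, Txn1 0.22 (I-BET151 against healthy). With the replicate number as a block log2 fold changes of opposite sign were Gsr -0.018 (I-BET151 against vehicle), Nfe2l2 -0.0036 (I-BET151 against healthy). With a filter of at least 10 counts in every mouse log2 fold changes of opposite sign were Keap1 0.0092, Gclm 0.017, Bach1 0.00036 (vehicle against healthy), Txn1 0.0061 (I-BET151 against healthy). With RLE normalisation log2 fold changes of opposite sign were Txn1 -0.012 (vehicle against healthy). Leaving out 1 mouse at a time gave these ranges, in log2 units where no count is named: ratio of Gclm to Gclc -0.096 to 0.026, 7 to 22 list genes called, Keap1 -0.071 to 0.028, Gclc -0.076 to 0.10, Gclm -0.089 to 0.020, Bach1 -0.14 to 0.033, Mafg -0.14 to 0.052, Prdx1 -0.018 to 0.066, Txn1 -0.077 to 0.065 (vehicle against healthy), and ratio of Gclm to Gclc -0.061 to 0.48, 0 to 2 list genes called, Keap1 -0.033 to 0.12, Hmox1 -0.20 to 0.18, Gclm -0.26 to 0.17, Txnrd1 -0.19 to 0.050, Gsr -0.10 to 0.26, G6pdx -0.19 to 0.0087, Gss -0.14 to 0.13, Mafg -0.46 to 0.097, Mafk -0.0052 to 0.14, Prdx1 -0.34 to 0.033, Sqstm1 -0.22 to 0.056, Txn1 -0.21 to 0.22, Ugdh -0.087 to 0.23 (I-BET151 against vehicle), and ratio of Gclm to Gclc -0.11 to 0.43, ratio of Nfe2l2 to Keap1 -0.32 to 0.13, 1 to 3 of the 9 genes called, Nfe2l2 -0.23 to 0.19, Keap1 -0.053 to 0.078, Gclm -0.28 to 0.13, Txnrd1 -0.019 to 0.20, Gsr -0.26 to 0.083, Cyp2a5 -0.30 to 0.29, Gpx4 -0.21 to 0.099, Mafg -0.55 to 0.024, Prdx1 -0.31 to 0.043, Txn1 -0.21 to 0.20 (I-BET151 against healthy).

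The replicate numbers of the sample titles showed no sign of pairing mice. Deviations of mice with the same number correlated on average at -0.070, -0.062 and -0.146 in the 3 comparisons. Deviations are taken from the group mean, so the averages for other numbers, 0.023, 0.019 and 0.049, largely follow from these by arithmetic. With the replicate block Nqo1 (adjusted p = 0.0207) and Srxn1 (0.0143) still passed edgeR's test in vehicle against healthy livers, and Srxn1 (0.0218) in I-BET151 against healthy livers.

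The limits are those of 4 mice a group, with healthy and vehicle mice sharing only 1 lane, and of a library in the I-BET151 group that stands apart. Genes of few counts, such as Gpx2 in healthy livers, are limited by counting. The strand setting of the counting is not given, which touches the reads of Keap1 and Gclm that lie over their antisense partners.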
